A study of Saccharomyces cerevisiae with 23 samples.

Results

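Mitochondrial ribosomal protein genes were described across 23 mutation accumulation lines of Saccharomyces cerevisiae. Such lines are kept apart over many generations, usually through narrow bottlenecks, so that each collects its own spontaneous mutations. The genes were chosen by name alone: symbols of the series MRPL, MRPS, MRP and RSM followed by a number, with IMG1, IMG2, YML6, NAM9 and MNP1. In all, 72 of the 6334 features on the array met that rule. Standard ribosomal protein names in the reference annotation placed 42 of them in the large subunit and 28 in the small subunit, while MRP8 and RSM22 had none.

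The mitochondrial ribosome translates the few messages of the mitochondrial genome, most of which encode membrane subunits of the respiratory chain and of the ATP synthase. Nearly all of its proteins are encoded in the nucleus, made in the cytosol and imported. Some descend from proteins shared by all ribosomes, some from proteins found in bacteria, and others are known only from mitochondria. In budding yeast, fermentation of glucose does not need this ribosome, but growth on non-fermentable carbon sources does, and its loss also leads to loss of the mitochondrial DNA.

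Each line was grown unsynchronized to log phase in YPD at 30 °C with shaking at 225 rpm, to an OD600 of about 1.0. Its cDNA, made from 15 μg of total RNA and labelled with Alexa Fluor 555, was hybridized to a spotted-oligo array with cDNA of strain YPS183, labelled with Alexa Fluor 647 and grown to an OD600 of 1.1. The lines are labelled MA line 19-1 to 19-50 with gaps and are named here by the number after the hyphen. They form 1 group with 1 column of values each. The ancestor of the lines was not analysed here, so a mean over lines that differs from 0 cannot be told apart from a standing difference between the lines' background and YPS183. Cultures were measured in bulk, and a change in all cells cannot be told apart from a larger change in some.

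Values are log ratios as deposited and are read here as log2. Which dye is in the numerator was not stated, so a positive value means positive as deposited, with no statement of which strain was higher. Over all features, 28 of the 253 pairs of lines correlated below -0.3, the lowest being lines 4 and 44 (r = -0.64). The labels state the same dyes for every line, and signs were kept. Lines 1 and 45 were the most alike (r = 0.90, SD of their difference 0.21 against 0.24 for the next closest pair) and entered as separate lines.

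Averaged over the lines, the genes leaned to positive values. The mean was above 0 for 59 of 72 (81.9%), against 49.9% of all features, and the median of their means was 0.08, against -0.0003 over all features. The lean was present in both subunits: 34 of 42 large subunit genes and 25 of 28 small subunit genes had positive means, each with a median of 0.09. It was seen in 27 of the 29 genes of the universal class, in 11 of the 16 bacterial ones and in 21 of the 25 known only from mitochondria. These shifts were small beside the spread between lines, which had a median SD of 0.30 for the 72 genes and 0.26 for all features. Every mean includes line 8, where 71 of the 72 genes were positive with a median of 0.74. The lean was not counted without that line.

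Few of the means passed the test on their own. By limma, with Benjamini-Hochberg adjustment over all 6334 features, 7 of 72 genes (9.72%) had a mean different from 0 at an adjusted p under 0.05, all of them positive. Over all features the share called was 9.22%, with 3.99% positive and 5.23% negative, so the share of these genes called was near the background and only its sign was uneven. At an unadjusted p under 0.05 there were 18 of 72, against 24.3% of all features. The plot of gene means shows the whole series of values, from MRPL33 at the low end to MRPL10 at the high end.

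**Figure D1:**
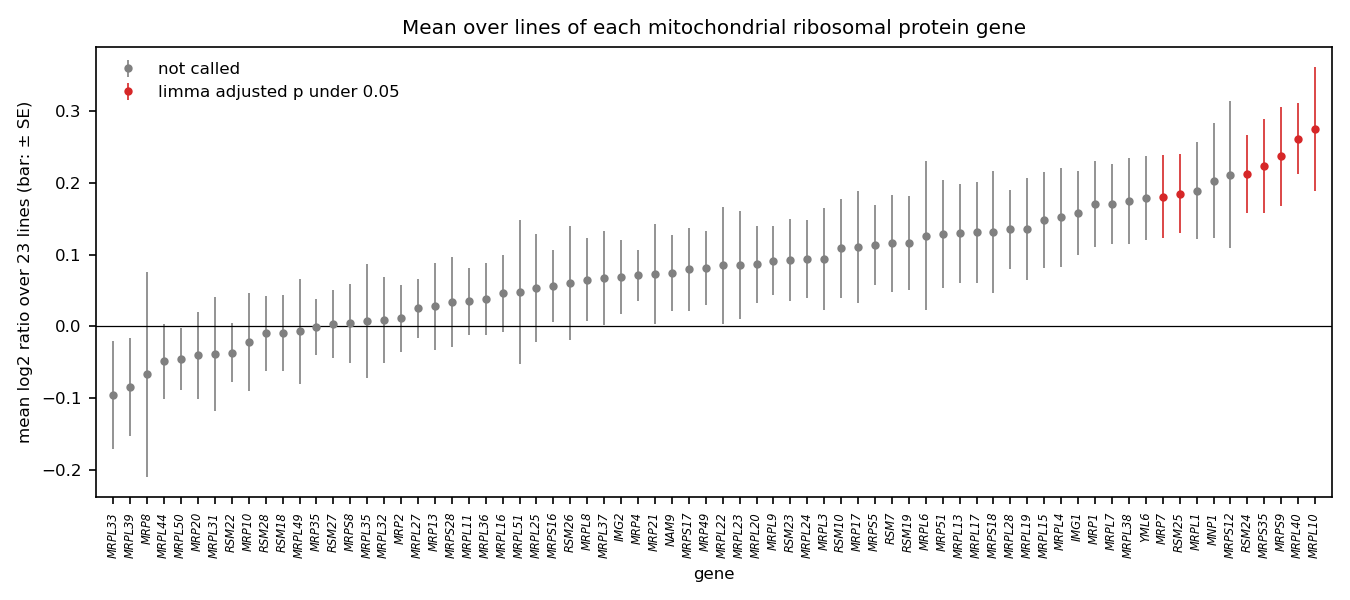
Mean log2 ratio over the 23 lines for each of the 72 genes, with bars of 1 SE, in order of the mean. Red points mark the 7 genes that limma called, all between 0.18 and 0.27, and 59 of 72 points lie above 0.

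In the large subunit, MRPL40 (uL24m) had the steadiest shift. Its values ran from -0.16 in line 10 through a median of 0.27 to 0.97 in line 8, and 20 of 23 lines were positive. Its mean was 0.26 ± 0.05 (SE, n = 23; limma adjusted p = 0.0011). MRPL10 (uL15m) had the highest mean of the 72 genes, 0.27 ± 0.09 (limma adjusted p = 0.0437), from values that spread more widely, between -0.50 in line 42 and 1.12 in line 8 around a median of 0.24. MRP7 (bL27m), whose bacterial counterpart lies near the catalytic centre of the ribosome, ranged from -0.36 in line 42 through a median of 0.17 to 0.71 in line 8. In MRP7 line 24 was almost as high as line 8, at 0.71, and the mean was 0.18 ± 0.06 (limma adjusted p = 0.0483).

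In the small subunit, RSM24 (mS35) ranged from -0.31 in line 10 through a median of 0.19 to 0.83 in line 8, with 19 of 23 lines positive and a mean of 0.21 ± 0.05 (limma adjusted p = 0.0134). MRPS9 (uS9m) had values from -0.31 in line 42 through a median of 0.21 to 1.17 in line 8. Its mean was 0.24 ± 0.07 (limma adjusted p = 0.0294), with 18 lines positive. MRPS35 (mS45) lay between -0.37 in line 10 and 0.82 in line 8, with a median of 0.24 and a mean of 0.22 ± 0.07 (limma adjusted p = 0.0327). RSM25 (mS23) lay between -0.36 in line 6 and 0.80 in line 8, with a median of 0.21 and a mean of 0.19 ± 0.06 (limma adjusted p = 0.0351). Line 8 held the highest value of all 7 called genes, while the lowest was in line 6, 10 or 42.

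These calls depended on which lines were present. MRPL40 and RSM24 were called whichever line was left out. MRPS9 was called in 19 of those 23 fits, MRPS35 in 15, RSM25 in 14, MRPL10 in 7 and MRP7 in 6. The number of genes called fell to 2 without line 1, 20 or 45, to 3 without line 8, 21 or 44 and to 4 without line 24, and it was 11 without line 10. RSM25 is the only one of the 72 genes on chromosome IX, by its systematic name. In line 49 the features of that chromosome lay 0.31 above the other lines as a median, and in line 50 they lay 0.26 above. RSM25 itself was 0.38 in line 49 and 0.34 in line 50, which is 0.21 and 0.16 above its mean in the other lines. Without line 49 its mean was 0.18 and without line 50 it was also 0.18, and neither was then called.

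At the other end, no gene had a mean called below 0. The lowest means were those of MRPL33 (uL30m), at -0.10 ± 0.08, of MRPL39 (bL33m), at -0.08 ± 0.07, and of MRP8, at -0.07 ± 0.14 (SE, n = 23). MRPL33 and MRPL39 are among the shortest of the 72 genes, with 261 and 213 bases. Over the 72 genes the mean rose with gene length (Spearman's rho = 0.38, across genes, which share the arrays and are not independent replicates).

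Line 8 stood apart for the whole set. It was singled out after the values were seen. There, 71 of the 72 genes were positive, from -0.01 for MRP49 through a median of 0.74 to 1.62 for MRPS12 (uS12m, whose bacterial counterpart sits at the decoding centre). In line 8 the value passed 0.5 for 54 genes and 1 for 16. For 53 of the 72 genes line 8 was the highest of all lines, against 7.28% of all features. Set against the other 22 lines by limma, 47 genes were positive at an unadjusted p under 0.05, against 6.41% of all features. None was negative, against 4.37% of all features. After quantile normalization of the columns the number was 14 of 72, against 1.63% of all features, and the median in line 8 was 0.48. The column was wide as a whole, with an SD over all features of 0.48, against 0.25 to 0.58 over the 23 columns.

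No gene alone passed the adjusted test in line 8. Over all 1656 pairs of a gene of the set and a line, limma found 0 departures of at least 1 with an adjusted p under 0.05, adjusting over 145682 pairs of features and lines. The smallest adjusted p was 0.150, for MRPL31 (mL60) in line 8. Over all features that test called 99 pairs (0.068%). At an unadjusted p under 0.05 there were 98 pairs of the set (5.92%), against 5.34% of all pairs, and 47 of the 98 were those of line 8. Outside line 8 the share was 3.22% for the set and 5.09% over all features.

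**Figure D2:**
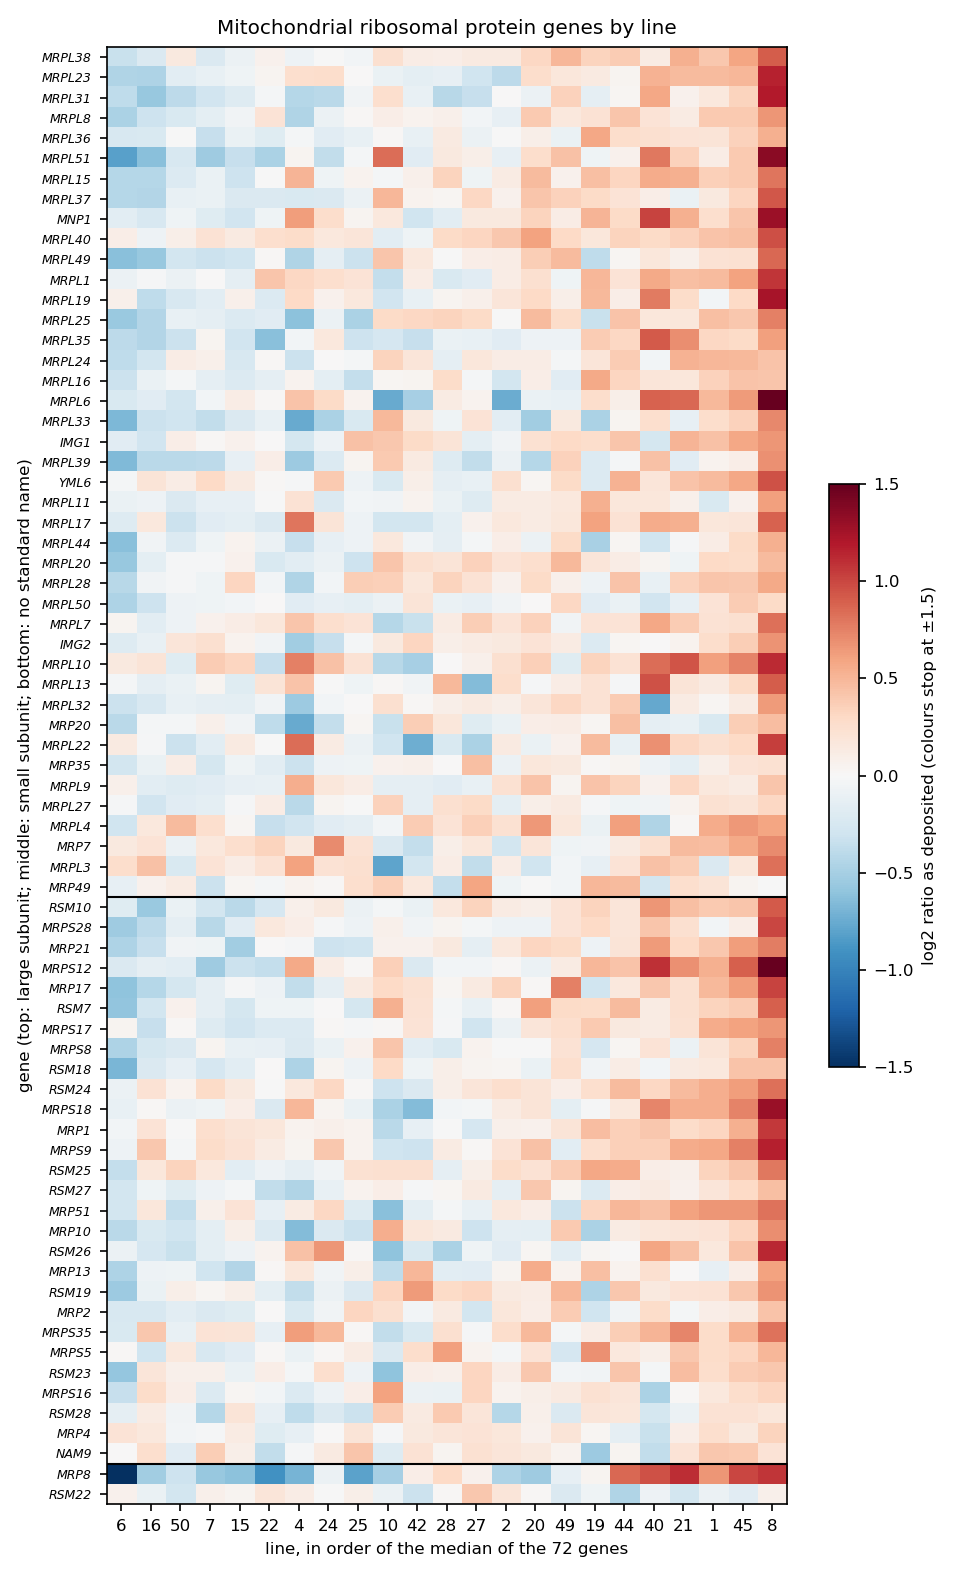
Log2 ratio as deposited of the 72 genes (rows) in the 23 lines (columns, in order of the median of the 72 genes), with large subunit genes above the first black line, small subunit genes below it and MRP8 and RSM22 at the bottom. Line 8 at the right edge is positive in 71 of 72 rows, line 6 at the left edge is mostly negative, and lines 4 and 10 show mixed colours.

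The high values in line 8 were alike in the parts of the ribosome. The median there was 0.72 for the large subunit and 0.77 for the small one. It was 0.89 for genes of the universal class, 0.66 for the bacterial class and 0.76 for genes known only from mitochondria. The highest values belonged to MRPS12 at 1.62, MRPL6 (uL6m) at 1.53, MRPL51 (mL43) at 1.35, MRPS18 (uS11m) at 1.30 and MNP1 (bL12m, the flexible stalk protein that binds translation factors) at 1.28. In these genes the second-highest line lay well below, at 1.09, 0.89, 0.84, 0.74 and 1.02. The lowest values in line 8 belonged to MRP49 (mL61) at -0.01, RSM22 at 0.08, RSM28 (mS46) at 0.17 and NAM9 (uS4m) at 0.21.

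Other lines moved the set less. The median of the 72 genes lay above 0 in 15 of 23 lines and spanned -0.28 in line 6 to 0.74 in line 8. After line 8 came line 45, with a median of 0.38 and 71 of 72 genes positive, then line 1 with 0.27 and 65 positive, line 21 with 0.24 and 60, line 40 with 0.21 and 54, and line 44 with 0.19 and 64. In line 6 only 13 genes were positive, and 18 of the 72 had their lowest value there, against 7.83% of all features. By limma 12 of 72 were negative in line 6 at an unadjusted p under 0.05, against 5.3% of all features, and none was positive, against 4.72%. The medians of the large and the small subunit differed by between -0.07 and 0.08 in every line, so the subunits moved together from line to line (r = 0.99 or more of each with the median of all 72, which contains them).

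Single genes followed the set to different degrees. The mean correlation over 2556 pairs of genes was 0.41 across the 23 lines, 0.0008 over all features, and 91.4% of the pairs were positive. Without line 8 it was 0.28. Correlated with the median of the other 71 genes, 61 genes passed 0.5, and 41 did so without line 8. MRPL38 (uL14m) tracked the others most closely, with r = 0.92, and it ran from -0.33 in line 6 through a median of 0.14 to 0.90 in line 8. Next came RSM10 (uS10m) with 0.86, MRPS28 (uS15m) with 0.85 and MRPL23 (uL13m) with 0.84. At the other end stood RSM22 with r = -0.15, NAM9 with 0.12, MRP49 with 0.12 and MRPL3 (mL44) with 0.21.

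RSM22, which is predicted to encode a methyltransferase, barely moved, with an SD of 0.19 and values from -0.45 in line 44 to 0.40 in line 27. MRP4 (uS2m) had the lowest SD, 0.16, and MRP35 (bL35m) had 0.18. The widest was MRP8, with an SD of 0.73, from -1.55 in line 6 through a median of -0.13 to 1.10 in line 21 and 1.07 in line 8. MRP8 was first named as a mitochondrial ribosomal protein from its sequence and is no longer counted as one, so the rule took it by its symbol alone. Its values nonetheless rose and fell with the others (r = 0.81). Leaving it out moved the median in line 8 only to 0.72. After MRP8 the widest genes were MRPL6 (SD 0.53), MRPS12 (0.52), MRPL51 (0.51), MRPL10 (0.43), MRPS18 (0.43), MRPL22 (0.41, uL22m) and MNP1 (0.40), and all 7 were highest in line 8.

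For 19 of the 72 genes the highest value lay in another line than 8. MRP49 (0.59), MRP35 (0.45) and RSM22 (0.40) were highest in line 27, and MRPS5 (uS5m, 0.68), MRPL36 (bL31m, 0.58) and MRPL16 (uL16m, 0.57) in line 19. Line 40 held both ends: MRPL13 (mL50) and MRPL35 (mL38) were highest there, at 0.95 and 0.92, and MRPS12 reached 1.09. MRPL32 (bL32m), MRPS16 (bS16m), MRPL4 (uL29m) and MRP4 were lowest there, at -0.77, -0.48, -0.45 and -0.33. In line 42, 6 genes had their lowest value, against 4.85% of all features, among them MRPL22 at -0.73 and MRPS18 at -0.65, although the median of the set was 0.03. In line 16 it was 9 genes, against 4.06%, with a median of -0.15 and 19 genes positive.

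Lines 4 and 10 split the set in opposite ways, a pattern noticed in the heat map of genes by line. The medians there were near 0, at -0.03 and 0.02, but the genes ranged from -0.76 to 0.84 in line 4 and from -0.79 to 0.84 in line 10. Over all features these lines were alike (r = 0.53), whereas over the 72 genes they ran against each other (r = -0.54). Line 10 held the lowest value of 12 of the 72 genes, against 10.1% of all features, and in line 4 limma gave 7 negative genes at an unadjusted p under 0.05, against 3.85%, and 3 positive, against 4.2%. In line 10 it gave 6 negative, against 7.7%, and 1 positive, against 9.44%, so departures in line 10 were near or below the background. The sign differed between the lines for 55 of 72 genes, against 38.2% of all features. The correlation was -0.60 within the large subunit and -0.61 within the small one. Of the other lists, it was -0.67 over the 7 ribosomal subunits outside the rule, -0.34 over 36 assembly factors of the respiratory complexes and -0.25 over 138 cytosolic ribosomal protein genes. It was 0.06 over 21 mitochondrial translation factors, 0.10 over 40 subunits of the respiratory chain and ATP synthase, 0.22 over 13 synthetases and 0.61 over 14 translational activators.

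In both lines the values of the set went with gene length, in opposite directions. In line 4 the value rose with gene length over the 72 genes (Spearman's rho = 0.53), and in line 10 it fell (rho = -0.69), while over all genes with a known length rho was -0.09 and 0.02. The 26 genes shorter than 500 bases had a median of -0.35 in line 4, with 5 positive, and of 0.31 in line 10, with 23 positive. The 18 genes longer than 900 bases had a median of 0.08 in line 4 and of -0.27 in line 10, with 10 and 1 positive. Other genes of those lengths had medians of -0.06 and 0.04 (683 genes, short) and of 0.001 and -0.03 (2426 genes, long). These length limits were set after the values were seen. With the median of each length decile of the other genes subtracted in each line, lines 4 and 10 still had r = -0.47 over the set, and the part of gene length within the set was not tested further.

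**Figure D3:**
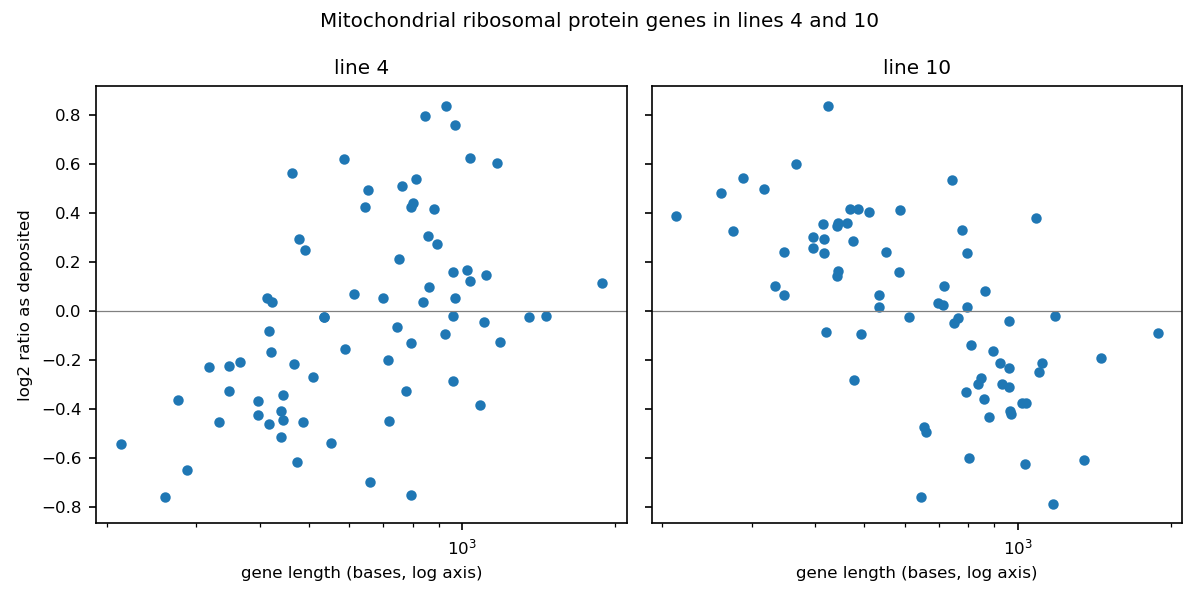
Log2 ratio as deposited of each of the 72 genes against its gene length in bases (log axis), in line 4 (left) and line 10 (right). Short genes lie mostly below 0 in line 4 and above 0 in line 10, and genes longer than 900 bases lie below 0 in line 10 with 1 exception above.

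The largest swings show the split gene by gene. MRPL3, whose protein has a ribonuclease III-like fold, went from 0.61 in line 4 to -0.79 in line 10, the lowest of its 23 values. MRPL22 went from 0.84 to -0.30, MRPL10 from 0.76 to -0.42 and MRPL6 from 0.42 to -0.76. In the other direction, MRPL33 went from -0.76 in line 4 to 0.48 in line 10, MRP10 (mS37) from -0.65 to 0.54, and MRPL39 from -0.54 to 0.39. None of these values passed the adjusted departure test. Among the 72 genes, rho between value and length was above 0 in 19 of 23 lines, highest in line 24 (rho = 0.56). It was below 0 in the other 4, namely line 10, line 49 (rho = -0.55), line 42 (rho = -0.24) and line 27 (rho = -0.05).

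Gene length also went with the level of the set across lines. In line 8 shorter genes tended to be higher over the whole array (rho = -0.34 between value and length), and mitochondrial ribosomal protein genes are short, with 213 to 1887 bases. Across the 23 lines, that whole-array length trend and the median of the 72 genes had r = -0.74 (rho = -0.72), and r was -0.65 without lines 8 and 45, the farthest from the middle. Within line 8, 71 of the 72 genes stood above the median of other genes in their length decile. Within the set, rho between value and length there was 0.006. In the decile of 78 to 453 bases, 20 of them had a median of 0.62, against 0.08 for 568 other genes. In the decile of 455 to 660 bases, 16 of them had a median of 0.89, against 0.14 for 565 other genes. In that of 861 to 1030 bases, 11 had a median of 0.96, against 0.08 for 570 others. The median in line 8 was 0.69 for genes of the set shorter than 500 bases and 0.66 for those longer than 900. Only the few longest were lower: 2 genes of 1242 to 1464 bases had a median of 0.30, against -0.01 for others. RSM22, in the decile of 1737 to 2121 bases, was at 0.08, against -0.15. Subtracting the median of the length decile, an alternative chosen after seeing the data, left a median of 0.62 in line 8. Across the 23 lines, the whole-array length trend and the median so adjusted had r = -0.55. The part of gene length in the level of the set was not tested further.

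**Figure D4:**
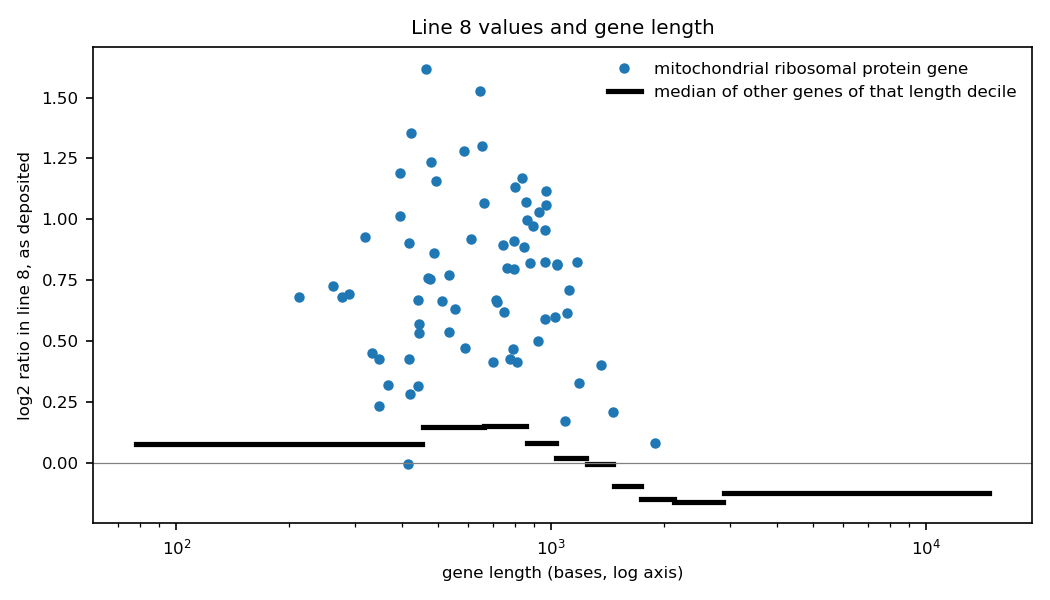
Log2 ratio as deposited in line 8 of the 72 genes (points) against gene length in bases (log axis), with the median of the other genes in each decile of length (black bars). The bars run from -0.16 to 0.15, and all points but MRP49 lie above the bar of their own length.

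Other genes of mitochondrial translation were tied to the set by degrees, and for factors and synthetases much of the tie rested on lines 8 and 45. The rule did not take the symbols of 7 ribosomal subunits (RML2, SWS2, PET123, MHR1, RTC6, EHD3 and MRX14). As a median these followed the set closely, with r = 0.96 over the 23 lines (0.92 without lines 8 and 45) and 0.80 in line 8. Singly, their r with the median of the set ran from 0.22 for EHD3 to 0.88 for PET123. Of them only RML2 (uL2m) was called, at 0.25 ± 0.06 (SE, n = 23; limma adjusted p = 0.0093). That is 14.3% of these 7 genes, against 9.22% of all features called. The 21 translation and ribosome assembly factors had r = 0.57, or 0.37 without lines 8 and 45, and a median of 0.31 in line 8. Of these MTG2, a GTPase of ribosome assembly, was called positive at 0.12 by the same test. MDM38, which binds the ribosome at the inner membrane, was called negative at -0.27. The share called in this list, 9.52%, was near the 9.22% of all features. The 13 mitochondrial aminoacyl-tRNA synthetases had r = 0.49, or 0.18 without lines 8 and 45, and a median of 0.40 in line 8. DIA4 (0.16) and MSW1 (0.13) were called positive, which is 15.4% of this short list, against 3.99% of all features called positive.

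The 14 translational activators, which each act on particular mitochondrial messages, had r = 0.25, or 0.15 without lines 8 and 45, and a median of only 0.04 in line 8. CBP3 (0.27), which acts on the cytochrome b message, and PET122 (0.26), which acts on that of cytochrome oxidase subunit III, were called positive. CBS1 (-0.12) was called negative. In all, 21.4% of these 14 genes were called, against 9.22% of all features. CBP3 and PET122 were nonetheless high in line 8, at 0.84 and 1.06. All these correlations are between list medians measured on the same arrays and describe these 23 columns alone.

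The products that the mitochondrial ribosome helps to build did not share the pattern of line 8. The 40 genes of this list, which also holds cytochrome c, succinate dehydrogenase, NDI1 and INH1, had a median of -0.64 there. By limma 12 of the 40 were negative at an unadjusted p under 0.05, against 4.37% of all features. None was positive, against 6.41%. ATP1, the alpha subunit of the ATP synthase, was at -2.41, COX8, a subunit of cytochrome oxidase, at -1.26 and ATP2 at -1.20. Over the lines, 8 of the 40 means were called, all negative, against 5.23% of all features called negative and 3.99% positive. Above 0 lay 3 of the 40 means, against 49.9% of all features. The medians of this list and of the ribosomal genes had r = 0.15 over the 23 lines and 0.64 without lines 8 and 45, so outside those lines they varied together.

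Assembly factors of the respiratory complexes and ATP synthase, a list written after the values were seen, followed the ribosomal genes instead. Their 36 genes had r = 0.90 with the set over the lines and 0.79 without lines 8 and 45. Since the list was written with the values known, this r describes the likeness and does not test it. In line 8 their median was 0.62, and 23 of 36 were positive at an unadjusted p under 0.05 by limma, against 6.41% of all features. ATP10, an assembly factor of the ATP synthase, was the only 1 of the 36 negative by that test, at -0.66, where 4.37% of all features were negative. ATP11, a chaperone of the ATP synthase, was called for its mean at 0.29 ± 0.08 (SE, n = 23; limma adjusted p = 0.0188) and was 1.32 in line 8. MSS2, needed for export of a cytochrome oxidase subunit, was called at 0.22 ± 0.04 (limma adjusted p = 0.0011). These 2 calls are 5.56% of the 36 genes, against 9.22% of all features called and 3.99% called positive.

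**Figure D5:**
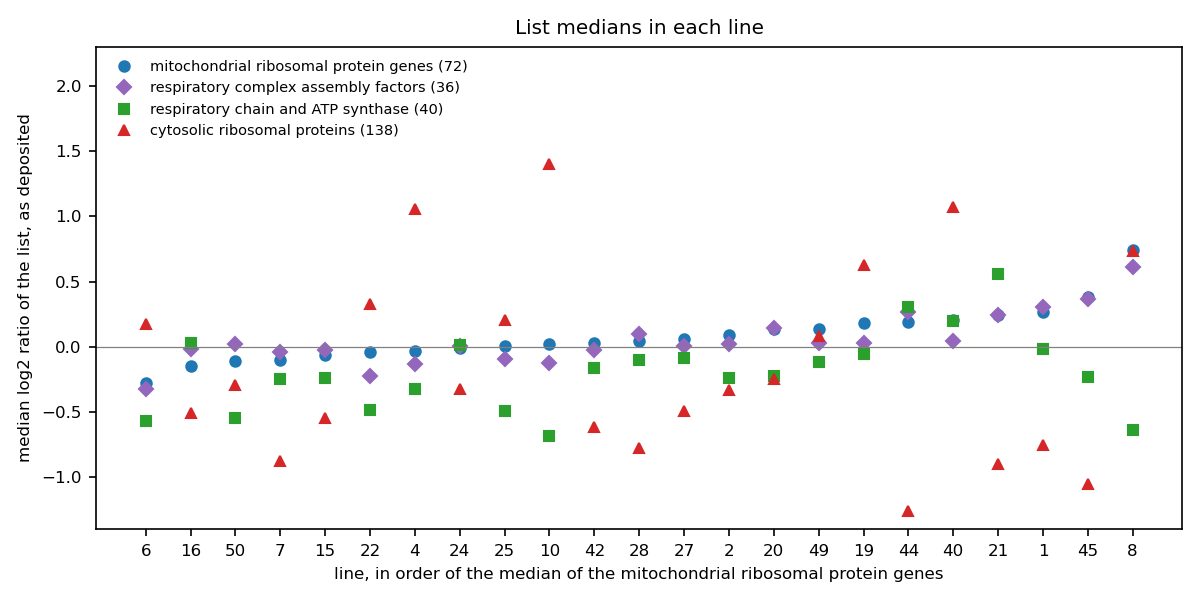
Median log2 ratio as deposited of 4 gene lists in each of the 23 lines, with lines in order of the median of the 72 mitochondrial ribosomal protein genes. Blue circles (ribosomal genes) and purple diamonds (assembly factors) lie close together, green squares (respiratory chain) drop to -0.64 in line 8, and red triangles (cytosolic ribosomal proteins) range from -1.26 in line 44 to 1.40 in line 10.

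The cytosolic ribosome behaved apart from the mitochondrial one. The medians of 138 cytosolic ribosomal protein genes ran from -1.26 in line 44 to 1.40 in line 10 and had r = 0.04 with those of the mitochondrial genes, or -0.09 without lines 8 and 45. The cytosolic genes were also more tightly tied to each other, with a mean correlation over pairs of 0.79 against 0.41. In line 8 the medians were the same, 0.74 for both. In lines 44 and 45, by contrast, the cytosolic median was -1.26 and -1.05 while the mitochondrial one was 0.19 and 0.38.

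Of 5745 matched genes outside the set, those most like its median over the 23 lines were FMP10 (r = 0.92), SDH5 (0.92), CMC1 (0.91) and RCF1 (0.91). SDH5 is needed to attach the flavin cofactor to succinate dehydrogenase, CMC1 for assembly of cytochrome oxidase, and RCF1 associates with respiratory supercomplexes. In line 8 these genes were at 1.33, 1.64, 0.94 and 1.32, and in line 6 at -0.59, -0.61, -0.41 and -0.74. Without line 8 the correlations were 0.88, 0.85, 0.87 and 0.87. PET123 and RTC6, subunits of the same ribosome outside the rule, were among the 20 most alike, with 0.88 and 0.84. SDH5, CMC1 and RCF1 are also in the list of assembly factors, as are PET100, CBP4, SDH8, ATP11 and COA3, which rank lower among the 20. Their likeness to the set is therefore the same one that was given for that list. All genes of this ranking were chosen for their likeness, so their values describe it and do not test it.

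Position on the chromosomes gave the set little in common. By their systematic names, the genes lay on every nuclear chromosome except I and VI, with 12 on chromosome IV and 11 on chromosome XIV. In 1 case were members direct neighbours: MRPS12 and RSM19, whose values over the lines had r = 0.31, below the mean of all pairs. MRP1 (mS43) and RSM26 (mS42), small subunit proteins related to superoxide dismutase in sequence, lie on chromosomes IV and X and had r = 0.72.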

How the data were processed

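Log ratios of transcript abundance were measured on 2-channel spotted-oligo arrays, 1 deposited column for each of 23 lines. Per the labels, the design used a common reference without dye swap and 2 biological replicates per strain. Whether columns average them was not stated. With 1 column for each line, p-values rest on the spread between columns, where line differences cannot be separated from culture and array noise. The deposited values were normalized by the authors and read as log2. Their log base, numerator, background correction and normalization method were not stated in the sources. No value was missing. The table holds no intensities, so the number of arrays limits the precision.

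Of 6334 features, 5817 were paired with R64 gene names by systematic name (5623 exactly, 194 after restoring a hyphen), among them all 72 genes of the set (70 and 2). Coordinates were not used; gene length is that of R64. The mean of each feature over lines was set against 0 (lmFit and eBayes of limma 3.58.1, R 4.3.3, two-sided), and departures by a term for each line in turn, which assumes that 1 column varies like the others. P-values were adjusted by Benjamini-Hochberg over all features, or all features and lines. Descriptions used Python 3.11.15. Simulated data of 6334 features and 23 columns were independent normal draws with the SDs of the real features. The test of means recovered 83 of 100 shifts of 0.3 and 98 of 100 of 0.6 there, with 9 false calls. The departure test recovered 121 of 200 of size 1.5, with 2 false calls. Real features and lines are correlated, so these counts need not hold for them.

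The set and the comparison lists were chosen with earlier results of these data known, and the list of assembly factors after the values were seen (COA2 was not matched). Genes were named by a rule: those called for their mean, the 3 highest and 3 lowest means, the 8 highest and 3 lowest SDs, the 4 most and 4 least like the others, MRP8, RSM25, and up to 3 called genes of each list. The genes named for lines 4, 8 and 10, for their position and for likeness to the set were chosen after their values were seen. Alternatives changed the scaling, the prior, weights, lines left out and gene length.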

Additional observations from a re-analysis of the deposited data

How the results depend on the processing

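The number of the 72 genes called for their mean was 7 and ran from 2 to 11 when each line was left out in turn (454 to 682 of all features). It was 2 with lines 1 and 45 averaged (467 of all features), 3 with a trend in the prior (431), 13 with array weights (1298 of all features, against 584) and 16 without lines 6, 10 and 40 together (856 of all features). With gene length deciles subtracted, an alternative chosen after seeing the data, it was 11 (549 of all features), a larger share than that of all features. With quantile normalization the median in line 8 was 0.48 and its range over lines 0.72 in place of 1.02, and the genes positive in line 8 at an unadjusted p under 0.05 numbered 14 (1.63% of all features) in place of 47. With a common MAD that number was 38 (4.64%) and with length subtracted 36 (5.74%). All 3 of these counts were chosen after seeing the data. The correlation of lines 4 and 10 over the set was -0.54 as reported, -0.54 with quantile normalization and -0.47 with length subtracted. Scaling columns to a common MAD cannot change a correlation, so it gives no check here. Of 650 alternative values of the genes named by rule, 591 kept their side of the threshold, 56 lost the call and 3 gained it. With the opposite sign 0 were called. These values cover a common MAD, quantile normalization and each line left out. Most of those genes were not called as reported and could not lose a call. All 56 losses fell on the 7 called genes, so the 591 do not measure how stable the 7 calls were. Means near 0 could change sign without a call, as for MRP8, at -0.07 as reported and 0.0006 without line 6. No paired analysis was possible because the lines form 1 group. Single ratios have no measured precision here.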
